A study of Homo sapiens with 54 samples.

Results

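Prostate tumours relapse from androgen deprivation more than once: first after castration, and again after enzalutamide, a drug that blocks androgen signalling, has been added. The tumours examined here were taken at the low point and at the relapse of each of these treatments, so that the 2 relapses could be set against each other gene by gene. The castration step was defined as the mean of CRPC minus the mean of POST-CX, the enzalutamide step as the mean of ENZR minus the mean of ENZS, and their difference as the enzalutamide step minus the castration step, all on log2(rescaled TPM + 1). TPM is a relative measure of how abundant the RNA of a gene is, and rescaled means that each tumour's human TPM were brought to a sum of 1000000. Of the 54 tumours of the series, 45 belonged to the 4 groups, and 43 remained after leaving out the 2 tumours whose deposited human TPM summed to under 300000 (POST-CX mouse 91 and ENZR mouse 87): 7 POST-CX, 10 CRPC, 12 ENZS and 14 ENZR.

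Every tumour was grown from LNCaP, a human prostate cancer line that needs androgens for full growth, here its clone FGC, injected under the skin of male NOD-SCID mice that had been obtained at 5 to 6 weeks of age. This host lacks B and T cells and keeps its own mouse stroma. All mice of the 4 groups were castrated when the tumour had reached about 200 mm3. POST-CX tumours were collected 1 week after castration, at the first low of serum prostate-specific antigen, and CRPC tumours once the antigen had returned or the tumour had reached 1000 mm3. Mice of the other groups received enzalutamide by mouth at 10 mg/kg on 5 days a week from the time the antigen rose again after castration. ENZS tumours were collected at the second low of the antigen and ENZR tumours when it had come back to its level before the drug or the tumour had reached 1000 mm3. The enzalutamide step therefore began in tumours that had already begun to relapse from castration. Tumours were taken from separate mice, and the 2 steps shared no tumour. The other 9 tumours of the series, PRE-CX, came from mice given mock surgery in place of castration and were collected at 1000 mm3. They belonged to neither step and entered the statistical model only in the shared estimate of the spread between tumours.

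Androgens drive the secretory genes of the luminal prostate, among them KLK3, which encodes prostate-specific antigen, and also sustain the growth of luminal prostate cancer cells. Castration removes most of the circulating androgen, and enzalutamide blocks the action of what remains in the tumour cells. Relapse is followed in the clinic by the return of prostate-specific antigen and by the return of growth, which are read out by different sets of genes: androgen-induced genes on one side, and the genes of DNA replication and mitosis on the other.

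Markers of luminal prostate cells were present throughout. The luminal keratins KRT8 and KRT18 were at least 221 TPM in each of the 43 tumours, FOLH1, which encodes prostate-specific membrane antigen, was at least 567 TPM, and the basal markers KRT5 and TP63 stayed at or below 0.0583 TPM. CHGA and INSM1, markers of neuroendocrine cells, were at most 0.381 TPM outside POST-CX, where mouse 99 held 1.796 and 1.19 TPM. Of 20 listed neuroendocrine genes 4 passed the filter on low values, among them ENO2, neuron-specific enolase, at group medians of 40.8 to 101 TPM and SYT4, a synaptotagmin, at 940.2 to 1930.3 TPM. ENO2 is a glycolytic enzyme that also stands in the hypoxia and glycolysis list below, so its level does not mark neuroendocrine cells by itself. Human TPM summed to 59.7% to 94.4% of 1000000 in POST-CX, 77.1% to 97.0% in CRPC, 70.8% to 95.5% in ENZS and 66.7% to 94.9% in ENZR before rescaling. Of 20 marker genes of stroma, vessels and blood, 10 were under 1 TPM in every tumour, and the sum over the 20 ranged from 15.1 to 34.9 TPM (median 24.8) in POST-CX, 17.4 to 105 (median 28.8) in CRPC, 23.6 to 301 (median 54.2) in ENZS and 14.5 to 85.1 (median 68.9) in ENZR. The stroma of the host is mouse and these values are of human symbols, so they do not measure the amount of stroma. In whole tumour pieces a lower value can mean fewer cells of a type or less RNA per cell, and these cannot be told apart.

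The difference between the 2 relapses was called for a small set of genes. limma, a linear model fitted to 17505 genes at once, tested each step and their difference, and calls required an adjusted p under 0.05 together with an absolute log2 value of 1 or more. The difference between the steps was called for 27 genes (0.154% of those tested), 11 with the enzalutamide step above the castration step (0.0628%) and 16 with it below (0.0914%). In each of the 27 the 2 steps had opposite signs, but picking genes by a wide difference favours this, so the count is no separate test. Of the 27, 12 had an adjusted p under 0.05 (limma) in the castration step and 2 in the enzalutamide step. Taken alone, the castration step was called for 14 genes (0.08%), 4 higher (0.0229%) and 10 lower (0.0571%) in CRPC, and the enzalutamide step for 0 (limma, 0%), with 1834 genes at an unadjusted p under 0.05 (10.5%) and 2, FANCA and DCXR-DT, at an adjusted p under 0.05 (0.0114%). Scaling bore on the balance of directions: with values as deposited the difference was called for 44 genes, 7 higher and 37 lower, and with each tumour centred on its own median for 74, 11 higher and 63 lower. The corresponding splits of the castration step were 3 higher and 2 lower, and 8 higher and 6 lower.

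Across the 17505 genes, 55.5% had opposite signs in the 2 steps, 31.2% with a higher enzalutamide and a lower castration step and 24.3% the other way round. Both steps were above 0 in 11.5% and below 0 in 33%. The Pearson correlation of the steps across genes was -0.20, a description over 17505 genes that share the same tumours and are not independent replicates, and it was -0.19 without the genes of the mitosis, DNA replication and androgen-induced lists. The median absolute log2 value was 0.15 for the castration step, from 7 and 10 tumours, and 0.11 for the enzalutamide step, from 12 and 14, and such sizes grow with the error of smaller groups. The median castration step over all genes was -0.08, and 0.03 when each tumour was centred on its median, so small values of either sign depended on the scaling.

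**Figure D1:**
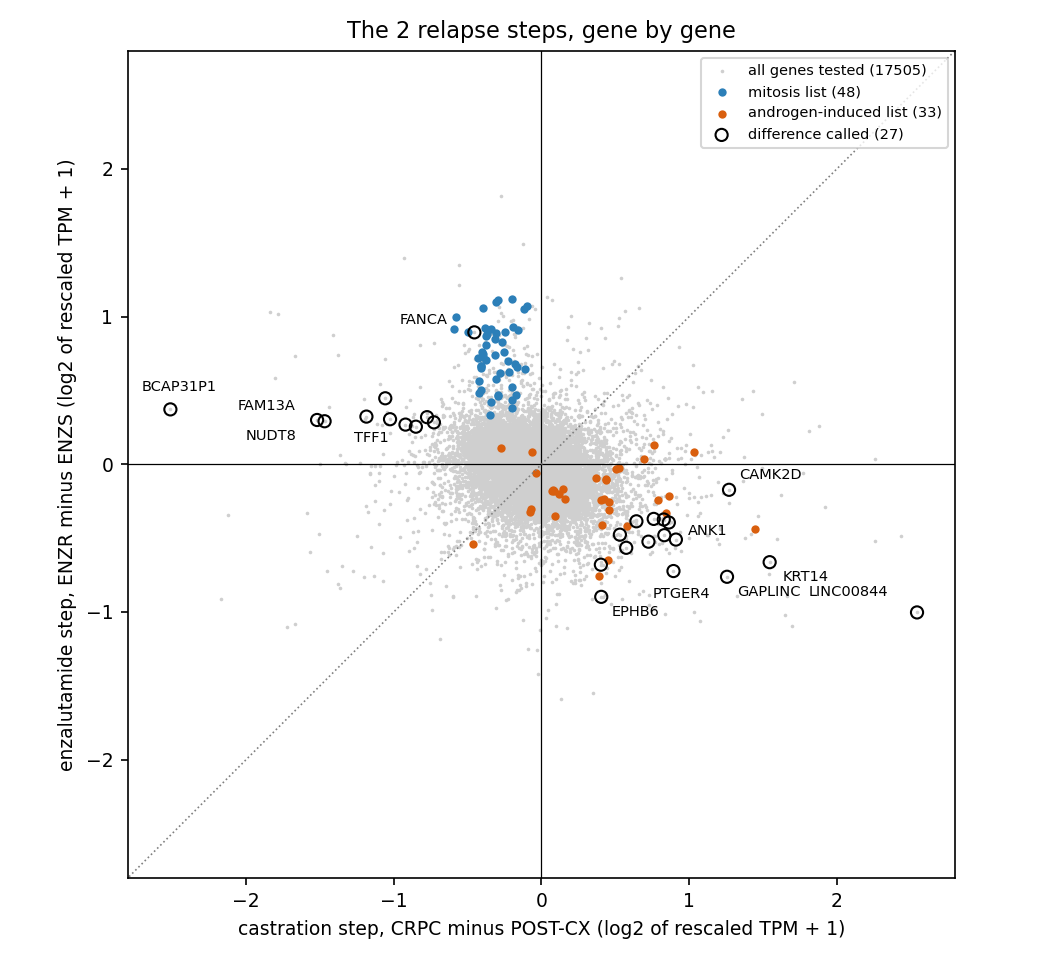
Each point is 1 of 17505 genes, with the castration step (CRPC minus POST-CX) on the horizontal and the enzalutamide step (ENZR minus ENZS) on the vertical axis, both in log2 of rescaled TPM + 1, and the dotted line marks equal steps. The 27 genes whose steps differed (open circles) lie in the upper left and lower right quadrants, the 48 mitosis genes (blue) all lie in the upper left, and 24 of the 33 androgen-induced genes (orange) lie in the lower right.

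Genes that moved opposite ways were defined by a called difference together with steps of opposite sign of at least 0.5 in log2 each. This held for 7 genes (0.04%), all of them higher in CRPC than in POST-CX and lower in ENZR than in ENZS: the long non-coding RNAs LINC00844, GAPLINC and FOCAD-AS1, the keratin gene KRT14, the prostaglandin E2 receptor gene PTGER4, the membrane skeleton gene ANK1 and the GTPase gene RRAGB. No gene met the reverse definition here, although 7 did with a pseudocount of 0.1 TPM, 5 with weights that let each group have its own spread and 2 with PRE-CX left out of the fit. None reached an adjusted p under 0.05 in both steps with opposite signs (0 of 17505 by limma), while 214 genes had an unadjusted p under 0.05 in both (1.22%). Of the 214, 118 were higher (0.674%) and 96 lower (0.548%) in the enzalutamide step. KRT14, PTGER4 and FOCAD-AS1 lie under the minimum of 5 TPM set for naming genes and were named after their values had been seen.

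LINC00844 (chromosome 10, 58999518 to 59001617, GRCh38), a long non-coding RNA described as androgen-induced in prostate cells, differed most between the steps. It ranged from 1.45 to 3.74 (median 2.05) in POST-CX, from 7.59 to 47.6 (median 16.3) in CRPC, from 0.957 to 46.5 (median 9.399) in ENZS and from 0.473 to 41.7 (median 4.93) in ENZR rescaled TPM. All 10 CRPC tumours lay above the POST-CX range, whereas the ENZS and ENZR ranges overlapped and 12 of 14 ENZR tumours lay below the ENZS median. The castration step was 2.54 (SE 0.55, adjusted p 0.0327), the enzalutamide step -1.003 (SE 0.44, adjusted p 0.401), and the difference -3.55 (SE 0.70, adjusted p 0.00883). The gap between the arms thus turned over: LINC00844 was higher in ENZS than in POST-CX by 1.69 in log2 and lower in ENZR than in CRPC, with a log2 gap of -1.86 (adjusted p 0.00349).

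Steps of the same signs were found for GAPLINC (chromosome 18, 3466250 to 3478978) and FOCAD-AS1, an antisense RNA. GAPLINC is a long intergenic RNA first described in gastric cancer. Among the 4 groups its median was highest in ENZS, whereas that of LINC00844 was highest in CRPC. GAPLINC ranged from 0.445 to 1.78 (median 1.08) in POST-CX, from 1.12 to 15.9 (median 3.97) in CRPC, from 3.14 to 28.4 (median 11.2) in ENZS and from 2.89 to 15.2 (median 5.12) in ENZR TPM, with 8 of 10 CRPC tumours above the POST-CX range and 11 of 14 ENZR tumours below the ENZS median. Its steps were 1.26 (SE 0.34) after castration and -0.76 (SE 0.27) under enzalutamide, and their difference -2.02 (SE 0.43, adjusted p 0.0203). FOCAD-AS1 was at 0 in 1 or more tumours of 3 of the groups and at most 3.31 TPM, with a difference of -1.25 (SE 0.30, adjusted p 0.0414). The gene it overlaps, FOCAD, had a difference of 0.10 (SE 0.20), and the strand setting of the counting was not given in the sources used here.

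KRT14 (chromosome 17, 41582279 to 41586895) encodes a keratin of basal epithelial cells. It ranged from 0.157 to 1.34 (median 0.482) in POST-CX, from 1.34 to 5.79 (median 3.702) in CRPC, from 0.0652 to 7.91 (median 1.33) in ENZS and from 0 to 10.5 (median 0.411) in ENZR TPM, and all 10 CRPC tumours stood above the POST-CX range while 12 of 14 ENZR tumours lay below the ENZS median. The castration step was 1.55 (SE 0.36, adjusted p 0.0412) and the difference -2.21 (SE 0.46, adjusted p 0.0148). The other basal markers did not accompany it, since KRT5 and TP63 were near 0 in every tumour. KRT16 and KRT17, close relatives of KRT14 in sequence, did not pass the filter on low values, and KRT17 reached 17.4 TPM in a single ENZS tumour.

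PTGER4 (chromosome 5, 40679915 to 40746800), a receptor that raises cyclic AMP when prostaglandin E2 binds, ranged from 0.699 to 2.79 (median 1.54) in POST-CX, from 0.961 to 10.7 (median 3.56) in CRPC, from 0.886 to 10.03 (median 2.61) in ENZS and from 0.413 to 3.92 (median 1.25) in ENZR TPM. In this gene 9 of 10 CRPC tumours were above the POST-CX median and 13 of 14 ENZR tumours below the ENZS median, with overlapping ranges in both steps. The difference was -1.62 (SE 0.37, adjusted p 0.0378), made up of 0.89 after castration and -0.72 under enzalutamide. At relapse PTGER4 was lower in ENZR than in CRPC (log2 gap -1.04, adjusted p 0.00239).

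ANK1, which encodes the ankyrin that ties membrane proteins to spectrin, had the smallest p of the 27. It ranged from 1.498 to 2.72 (median 1.91) in POST-CX, from 3.04 to 7.07 (median 4.45) in CRPC, from 4.45 to 13.1 (median 6.32) in ENZS and from 2.42 to 7.31 (median 4.701) in ENZR TPM, all 10 CRPC tumours stood above the POST-CX range, and 12 of 14 ENZR tumours lay below the ENZS median. Its castration step was 0.91 (SE 0.19, adjusted p 0.0286), its enzalutamide step -0.51 (SE 0.15, adjusted p 0.275), and the difference -1.42 (SE 0.24, adjusted p 0.00339). At relapse the log2 gap of ANK1 between ENZR and CRPC was -0.05 (95% interval -0.37 to 0.26).

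RRAGB (chromosome X, 55717749 to 55758774), a Rag GTPase that carries the amino acid signal to the growth kinase mTORC1, was the most abundant of the 7. It ranged from 15.2 to 30.7 (median 21.97) in POST-CX, from 14.8 to 59.5 (median 35.03) in CRPC, from 42.6 to 85.3 (median 63.5) in ENZS and from 18.9 to 71.3 (median 41.6) in ENZR TPM, with 7 of 10 CRPC tumours above the POST-CX range and 7 of 14 ENZR tumours below the ENZS range. The steps were of equal size, 0.57 and -0.57, and the difference was -1.14 (SE 0.28, adjusted p 0.0439). This call was among the least stable, since it remained in 17 of the 43 fits that each left out 1 tumour. RRAGA, a paralog close in sequence, had a difference of -0.17 (SE 0.12).

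**Figure D2:**
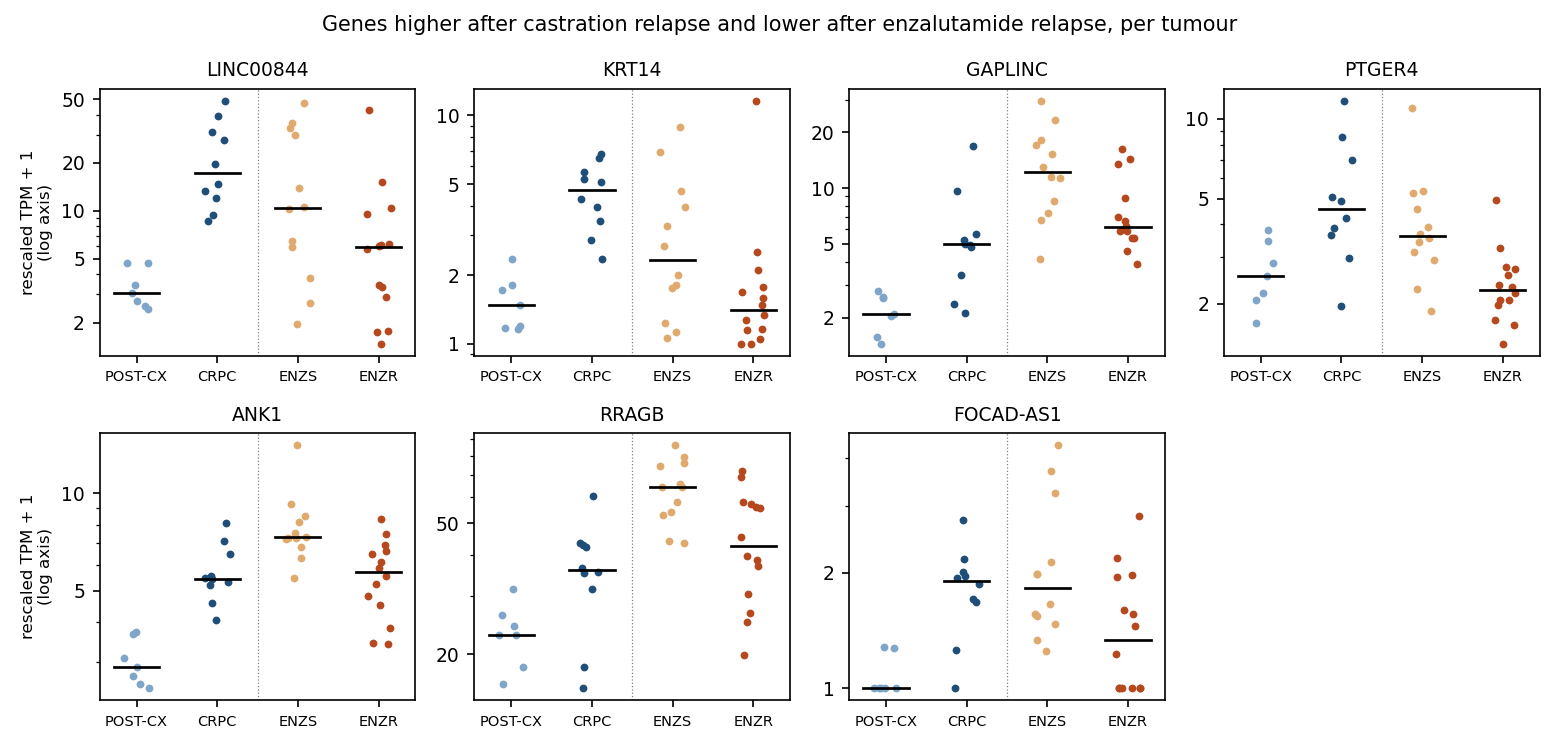
Each point is 1 tumour, with rescaled TPM + 1 on a log axis and the group on the horizontal axis (7 POST-CX, 10 CRPC, 12 ENZS and 14 ENZR tumours), and black bars mark group medians. In each of the 7 panels the median is higher in CRPC than in POST-CX and lower in ENZR than in ENZS, and for LINC00844, KRT14 and ANK1 the 10 CRPC tumours lie above all POST-CX tumours.

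Of the other 9 genes with a difference below 0, CAMK2D, a calcium-dependent kinase, showed the clearest castration step. CAMK2D (chromosome 4, 113451032 to 113761738) ranged from 5.23 to 20.9 (median 13.5) in POST-CX, from 23.6 to 40.7 (median 30.5) in CRPC, from 20.4 to 65.4 (median 39.3) in ENZS and from 14.7 to 69.7 (median 36.1) in ENZR TPM, so that all 10 CRPC tumours lay above the POST-CX range while ENZS and ENZR overlapped widely. Its castration step was 1.27 (SE 0.27, adjusted p 0.0327), its enzalutamide step -0.17 (SE 0.22) and the difference -1.44 (SE 0.35, adjusted p 0.0411). NFIL3, a basic leucine zipper repressor, had a difference of -1.26 (SE 0.31, adjusted p 0.0439), and in POST-CX 1 tumour, mouse 66, stood apart at 53.4 TPM from a median of 32.6. ASAH1, the lysosomal acid ceramidase, was the most abundant of the 27, with group medians of 227 TPM in POST-CX, 339 in CRPC, 619.8 in ENZS and 523 in ENZR. Its difference was -1.03 (SE 0.25, adjusted p 0.0437).

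C17orf58, a gene of unsettled function, had small steps with little spread. It ranged from 5.96 to 10.4 (median 8.63) in POST-CX, from 11.0003 to 18.3 (median 14.9) in CRPC, from 10.2 to 30.99 (median 20.5) in ENZS and from 7.63 to 21.9 (median 15.95) in ENZR TPM, all 10 CRPC tumours lay above the POST-CX range, and the difference was -1.13 (SE 0.20, adjusted p 0.00339). DCXR-DT, a transcript divergent from the dicarbonyl and L-xylulose reductase gene DCXR, was lower in the enzalutamide step taken alone (-0.68 (SE 0.13, adjusted p 0.0421)), with all 14 ENZR tumours below the ENZS median and 9 below the ENZS range. Its difference was -1.08 (SE 0.21, adjusted p 0.00883), and that of its neighbour DCXR -0.68 (adjusted p 0.0573).

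The remaining 4 were EPHB6, an Eph receptor without kinase activity, PLA2G5, a secreted phospholipase, FANCD2OS and AC127526.5. FANCD2OS is named for the strand opposite FANCD2, and AC127526.5 had no position in the annotation used. EPHB6 had the larger step under enzalutamide, -0.90 against 0.40 after castration, and a difference of -1.303 (SE 0.33, adjusted p 0.0439). The differences of PLA2G5 and AC127526.5 were -1.202 (SE 0.29) and -1.01 (SE 0.24). FANCD2OS had a difference of -1.31 (SE 0.33, adjusted p 0.0439) and FANCD2, the DNA repair gene beside it, one of 0.45 (adjusted p 0.327). EPHB6, PLA2G5 and DCXR-DT stayed under a group mean of 5 TPM, and they and AC127526.5 were named after their values had been seen.

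FANCA (chromosome 16, 89737549 to 89816647), a core subunit of the Fanconi anaemia complex that repairs crosslinked DNA, was 1 of 11 genes with a difference above 0 and rose in the enzalutamide step itself, with an adjusted p under 0.05 though short of a log2 value of 1. It ranged from 10.5 to 14.8 (median 11.5) in POST-CX, from 4.697 to 15.6 (median 8.86) in CRPC, from 1.57 to 6.24 (median 3.18) in ENZS and from 3.15 to 17.3 (median 6.35) in ENZR TPM. In ENZR 13 of 14 tumours lay above the ENZS median and 7 above the ENZS range, while 8 of 10 CRPC tumours lay below the POST-CX range. The enzalutamide step was 0.89 (SE 0.17, adjusted p 0.0308), the castration step -0.45 (SE 0.21, adjusted p 0.311), and the difference 1.35 (SE 0.27, adjusted p 0.00883). ZNF276, whose gene adjoins FANCA on the opposite strand, had a difference of 1.02 (SE 0.30, adjusted p 0.0782).

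In the other 10 the larger step was the one after castration, where the gene was lower in CRPC. FAM13A (chromosome 4, 88725960 to 89057185) ranged from 87.8 to 189 (median 146) in POST-CX, from 29.3 to 69.4 (median 55.2) in CRPC, from 40.1 to 135 (median 67.9) in ENZS and from 42.7 to 136 (median 102) in ENZR TPM. All 10 CRPC tumours stood below the POST-CX range, and 11 of 14 ENZR tumours above the ENZS median. In the castration step FAM13A fell by 1.52 in log2 (SE 0.27, adjusted p 0.00481), its enzalutamide step was 0.30 (SE 0.22), and the difference was 1.82 (SE 0.35, adjusted p 0.00883). The arms changed places: FAM13A was lower in ENZS than in POST-CX (-1.002, adjusted p 0.00278) and higher in ENZR than in CRPC (0.82, adjusted p 0.00781).

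NUDT8 (chromosome 11, 67627938 to 67629937), a Nudix hydrolase of mitochondria, ranged from 36.1 to 68.8 (median 55.4) in POST-CX, from 13.7 to 35.9 (median 18.8) in CRPC, from 8.25 to 47.7 (median 10.9) in ENZS and from 8.05 to 65.99 (median 13.9) in ENZR TPM. All 10 CRPC tumours were below the POST-CX range, and 11 of 14 ENZR tumours were above the ENZS median although both groups spanned a wide range. Its castration step was -1.47 (SE 0.31, adjusted p 0.0327) and the difference 1.76 (SE 0.40, adjusted p 0.0294). C1QTNF6, a secreted protein of the C1q and tumour necrosis factor family, had a castration step of -1.03 (SE 0.23, adjusted p 0.0337) and a difference of 1.33 (SE 0.29, adjusted p 0.0246). TFF1, a secreted trefoil peptide, went from a median of 3.23 TPM in POST-CX to 0.993 in CRPC, against 0.734 in ENZS and 1.11 in ENZR, with a difference of 1.51 (SE 0.35, adjusted p 0.0390).

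BCAP31P1 (chromosome 16, 33987962 to 33991551) had the widest difference of the 11, 2.88 (SE 0.55, adjusted p 0.00883), but it is a processed pseudogene of BCAP31, and reads of near-identical copies can be divided between them. It ranged from 3.41 to 38.5 (median 15.7) TPM in POST-CX, from 0.288 to 14.05 (median 1.74) in CRPC, and did not exceed 3.06 TPM in ENZS and ENZR. BCAP31 itself was at medians of 307 to 399 TPM with a difference of -0.18 (SE 0.12).

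The other 5 genes were at low levels. CDK5R1, the p35 activator of the kinase CDK5, had a difference of 1.105 (SE 0.26), MEX3A, an RNA-binding protein, 1.09 (0.27), and VASH2, a tubulin carboxypeptidase of the vasohibin family, 1.01 (0.21). NPW, a neuropeptide precursor, and CNTNAP2, a neurexin-related adhesion protein, differed by 1.504 (SE 0.31) and 1.19 (SE 0.30). In CDK5R1 and CNTNAP2 all 10 CRPC tumours lay below the POST-CX range. TFF1, NPW and CNTNAP2 stayed under a group mean of 5 TPM, and these 3, CDK5R1, MEX3A and VASH2 were named after their values had been seen. The MEX3A call remained in 15 of the 43 fits without 1 tumour, the fewest of the 27.

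**Figure D3:**
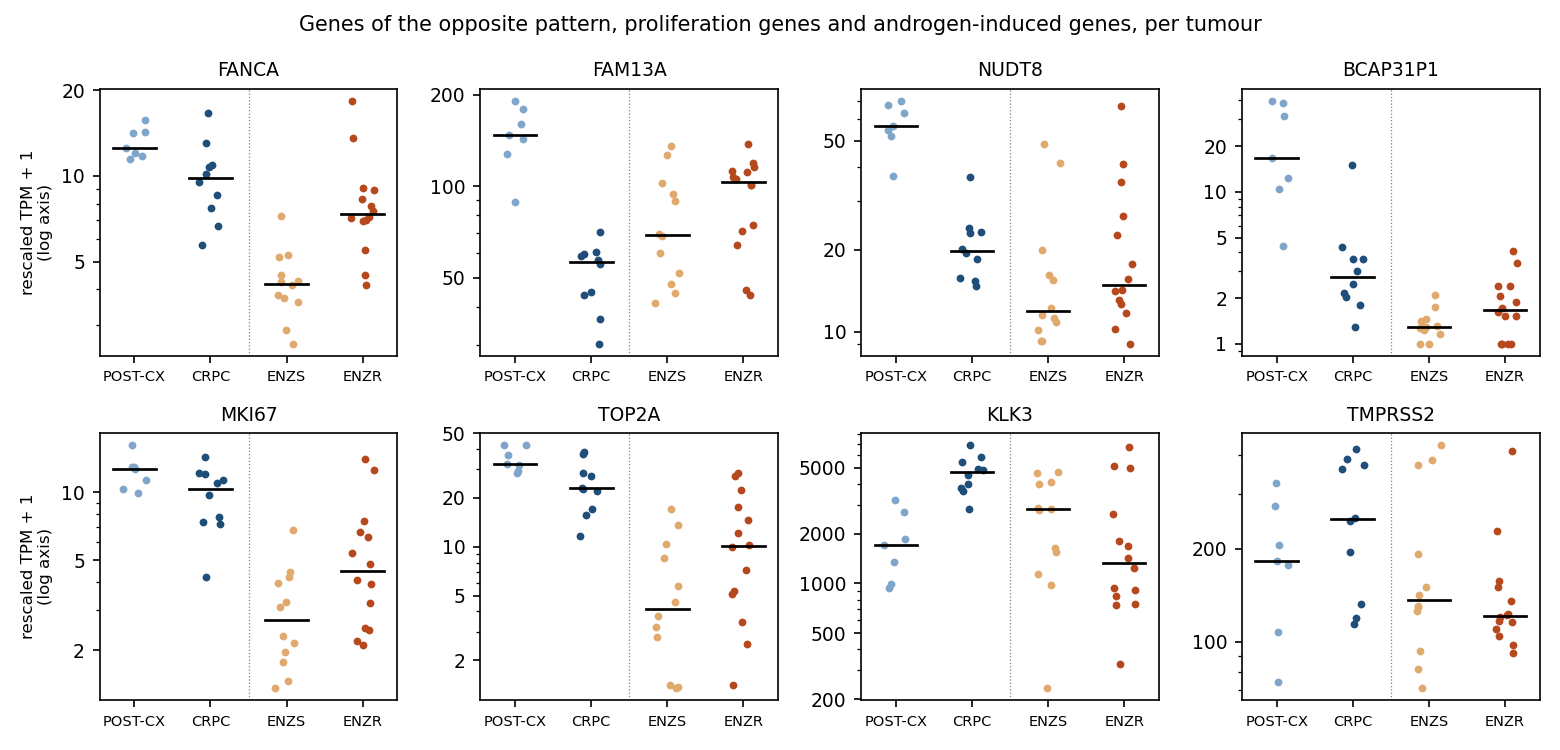
Each point is 1 tumour, with rescaled TPM + 1 on a log axis and the group on the horizontal axis (7 POST-CX, 10 CRPC, 12 ENZS and 14 ENZR tumours), and black bars mark group medians. FANCA, FAM13A, NUDT8, BCAP31P1, MKI67 and TOP2A have lower medians in CRPC than in POST-CX and higher medians in ENZR than in ENZS, and KLK3 and TMPRSS2 show the reverse order.

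The genes whose steps differed stood apart mostly at the start of the steps. The difference between the steps equals the gap between the arms at relapse (ENZR minus CRPC) minus the gap at the low point (ENZS minus POST-CX). The gap at the low point was called for 21 of the 27 genes, against 4.49% of all genes tested, and the gap at relapse for 3 of 27, against 1.38%. The difference is built from the same tumours as the gaps, so these counts describe it and are no separate test. The 3 genes with a called gap at relapse were LINC00844, KRT14 and PTGER4, each lower in ENZR than in CRPC, against 0.748% of all genes. In 22 of 27 the gap at the low point was the larger in size, as it was in 56.9% of all genes. GAPLINC, for instance, was higher in ENZS than in POST-CX by 2.53 in log2 and in ENZR than in CRPC by 0.51, and NUDT8 had gaps of -1.89 and -0.13.

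**Figure D4:**
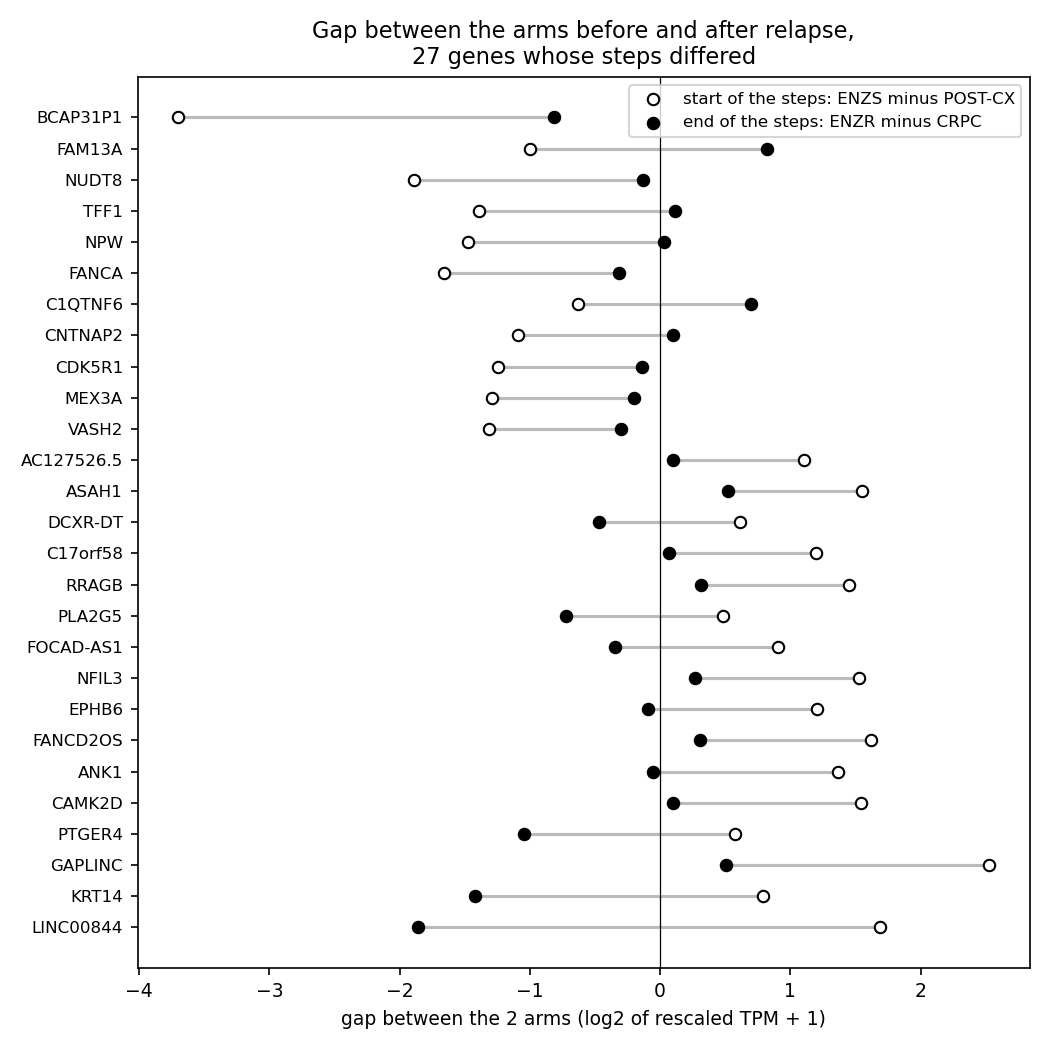
For each of the 27 genes, the open circle gives the gap between the arms at the low point (ENZS minus POST-CX) and the filled circle the gap at relapse (ENZR minus CRPC), in log2 of rescaled TPM + 1. The filled circle lies nearer to 0 in 22 of the 27 genes, and in LINC00844, KRT14 and PTGER4 it lies at -1.86, -1.42 and -1.04.

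No gene was shared by both relapses at the thresholds used. The number of genes with an adjusted p under 0.05 and the same sign in both steps was 0 (limma, 0%), and 32 genes had an unadjusted p under 0.05 in both with the same sign (0.183%), 31 lower (0.177%) and 1 higher (0.00571%). The one higher in both was POU5F1, the pluripotency factor OCT4, at 0.40 and 0.41, a gene with many processed pseudogenes. The count of shared genes could not have exceeded 2, because FANCA and DCXR-DT alone reached an adjusted p under 0.05 in the enzalutamide step, and both had a castration step of the opposite sign. These 32 rest on unadjusted values, and those named here were picked after their values had been seen.

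Among the genes lower at both relapses, KCNMA1 (chromosome 10, 76869602 to 77637808), a calcium-activated potassium channel, came nearest to the definition. It ranged from 6.83 to 21.4 (median 9.896) in POST-CX, from 1.56 to 14.1 (median 3.06) in CRPC, from 0.832 to 8.84 (median 4.63) in ENZS and from 0.496 to 11.4 (median 1.94) in ENZR TPM, with 8 of 10 CRPC tumours below the POST-CX range and 13 of 14 ENZR tumours below the ENZS median. Its steps were -1.38 (SE 0.33, adjusted p 0.0485) after castration and -0.81 (SE 0.26, adjusted p 0.299) under enzalutamide. IGF1R, the receptor of insulin-like growth factor 1, ranged from 2.097 to 10.8 (median 4.72) in POST-CX, from 0.758 to 3.42 (median 1.45) in CRPC, from 1.04 to 14.7 (median 2.26) in ENZS and from 0.437 to 2.03 (median 1.12) in ENZR TPM. All 10 CRPC tumours lay below the POST-CX median and all 14 ENZR tumours below the ENZS median, and its steps were -1.13 (SE 0.31) and -0.75 (SE 0.25).

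MCTP2, a membrane protein with C2 domains, fell in the castration step (-1.25 (SE 0.28, adjusted p 0.0339)) and had an enzalutamide step of -0.49 (SE 0.22). The steps of the thrombin receptor gene F2R were -0.86 and -0.57, those of TBC1D4, a Rab GTPase-activating protein of glucose transport, -0.84 and -0.69, and those of DSC2, a desmosomal cadherin, -0.82 and -0.75. For none of these did the difference pass, which does not show that the steps were equal: the 95% interval of the difference ran from -0.28 to 1.41 for KCNMA1, -0.43 to 1.19 for IGF1R and -0.88 to 1.04 for DSC2.

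The genes of cell division had opposite signs in the 2 relapses, with small values after castration. The mitosis list of 48 genes, which holds kinases, kinesins, cyclins and centromere proteins of dividing cells, had all 48 members above 0 in the enzalutamide step and 0 of 48 above 0 in the castration step, against 42.7% and 35.8% of all genes. The medians were 0.73 and -0.31, and that of the difference 1.08, beside -0.03, -0.08 and 0.05 over all genes. No member was called or reached an adjusted p under 0.05 for the difference (0 of 48, limma), and 42 of 48 were higher at an unadjusted p under 0.05, against 10.7% of all genes. At an unadjusted p under 0.05, 44 of 48 were higher in the enzalutamide step, against 3.43% of all genes, and 0 of 48 were lower in the castration step, against 11%. With all 54 tumours kept, 11 of the 48 were above 0 in the castration step and its median was -0.10.

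The level of the list in each tumour, as the mean log2(rescaled TPM + 1) of its 48 genes, ranged from 4.35 to 5.10 (median 4.59) in POST-CX, 3.66 to 5.10 (median 4.39) in CRPC, 1.32 to 3.74 (median 2.22) in ENZS and 1.35 to 4.57 (median 3.05) in ENZR. Every POST-CX tumour lay above every ENZS tumour, the POST-CX and CRPC ranges overlapped, and ENZR spanned the range from the lowest ENZS tumours to just above the CRPC median. MKI67, the proliferation marker Ki-67, ranged from 8.94 to 15.1 (median 11.7) in POST-CX, from 3.21 to 13.3 (median 9.37) in CRPC, from 0.359 to 5.83 (median 1.71) in ENZS and from 1.12 to 13.1 (median 3.46) in ENZR TPM. Its steps were -0.40 (SE 0.32) and 0.76 (SE 0.26), with a difference of 1.16 (SE 0.42, adjusted p 0.144). FOXM1, the transcription factor of the G2 and M phases, had steps of -0.40 and 1.06, TOP2A, topoisomerase II alpha, of -0.58 and 0.995, and the ubiquitin-conjugating enzyme UBE2C of -0.30 and 1.11. The low point in POST-CX was one of serum antigen, and these genes stood there nearer to uncastrated tumours than to ENZS. Medians of MKI67, FOXM1, TOP2A and UBE2C were 13.7, 43.7, 29.1 and 69.5 TPM in PRE-CX. In POST-CX they were 11.7, 39.6, 31.3 and 51.6 TPM, and in ENZS 1.71, 4.35, 3.15 and 5.01 TPM.

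DNA replication genes had the same signs and smaller medians. Of 40 genes, 38 were above 0 in the enzalutamide step (median 0.34), 2 in the castration step (median -0.18) and 39 in the difference (median 0.56). At an unadjusted p under 0.05 (limma), 22 of 40 were higher in the enzalutamide step, against 3.43% of all genes. In the castration step 2 of 40 were lower, against 11%. The castration median was -0.08 as deposited, -0.07 with median centring and -0.04 with all 54 tumours. In these settings 10, 10 and 14 of the 40 genes were above 0 in that step. RRM2, a subunit of ribonucleotide reductase, had medians of 76.2 TPM in POST-CX, 59.98 in CRPC, 9.18 in ENZS and 15.9 in ENZR. Outside the lists, and picked after their values had been seen, the genes higher in the enzalutamide and lower in the castration step at an unadjusted p under 0.05 in both included the DNA ligase LIG1 (0.50 and -0.48), the repair polymerase POLQ (0.57 and -0.54) and the cohesin subunit SMC1A (0.46 and -0.47). The laminin chain LAMA3, at 0.74 and -1.37, belonged to the same 118 genes, and its difference had an adjusted p of 0.0648 (limma).

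Promoters of mitotic genes are known for CCAAT boxes bound by NF-Y and for the cell-cycle homology region, TTTGAA or TTTAAA, read by the DREAM complex, and FANCA and LINC00844 stood out among the called genes of either direction. The 300 bases around the start of 2 mitotic genes (CCNB2, cyclin B2, and CDC20, the activator of the anaphase-promoting complex) and of FANCA and LINC00844 are therefore shown as RefSeq gives them on GRCh38.p14, 5′ to 3′ along the gene, with 250 bases before and 50 after the start. Capitals mark the CCAAT box, the region TTTGAA or TTTAAA, the motif TGTTCT found in androgen response elements and the hypoxia response core ACGTG, each on either strand, and the palindrome TTTAAA matches on both.
CCNB2, chr15:59104896-59105195, plus strand: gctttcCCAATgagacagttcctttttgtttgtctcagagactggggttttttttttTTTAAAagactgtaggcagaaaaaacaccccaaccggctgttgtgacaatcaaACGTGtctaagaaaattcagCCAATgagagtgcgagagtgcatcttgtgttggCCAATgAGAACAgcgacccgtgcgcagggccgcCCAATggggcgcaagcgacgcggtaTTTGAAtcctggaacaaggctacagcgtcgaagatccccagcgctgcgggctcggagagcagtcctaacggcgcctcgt
CDC20, chr1:43358731-43359030, plus strand: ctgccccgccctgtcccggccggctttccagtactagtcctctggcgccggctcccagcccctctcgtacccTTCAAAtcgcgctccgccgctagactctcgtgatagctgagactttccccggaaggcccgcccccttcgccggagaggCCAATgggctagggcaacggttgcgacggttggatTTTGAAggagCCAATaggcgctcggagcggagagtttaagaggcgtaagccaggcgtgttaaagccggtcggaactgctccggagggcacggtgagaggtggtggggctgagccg
FANCA, chr16:89816598-89816897, minus strand: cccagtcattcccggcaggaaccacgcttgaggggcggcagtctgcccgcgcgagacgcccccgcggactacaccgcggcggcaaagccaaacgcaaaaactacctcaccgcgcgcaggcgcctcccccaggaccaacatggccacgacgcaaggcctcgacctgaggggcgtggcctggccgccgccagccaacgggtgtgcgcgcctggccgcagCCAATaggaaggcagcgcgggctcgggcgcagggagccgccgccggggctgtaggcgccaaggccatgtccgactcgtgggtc
LINC00844, chr10:58999268-58999567, plus strand: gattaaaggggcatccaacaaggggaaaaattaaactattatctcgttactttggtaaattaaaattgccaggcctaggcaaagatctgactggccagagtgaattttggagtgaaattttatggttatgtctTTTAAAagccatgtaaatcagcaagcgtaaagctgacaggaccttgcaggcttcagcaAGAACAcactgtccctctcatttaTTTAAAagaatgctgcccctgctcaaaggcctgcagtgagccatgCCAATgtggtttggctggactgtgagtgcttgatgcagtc

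TTTGAA or TTTAAA occurred in 34 of the 40 mitosis genes whose promoter was in the table (85.0%), against 1722 of 10948 genes tested (15.7%) and 24.3% of all 27305 promoters, and CCAAT in 29 of 40 (72.5%), against 37.1% and 35.7%. Among the 27 called genes 20 had a promoter in the table, and 8 held TTTGAA or TTTAAA (40.0%), 8 CCAAT (40.0%), 4 ACGTG, against 26.8% of genes tested, and 2 TGTTCT, against 9.15%. FANCA held 1 CCAAT and none of the other motifs, and LINC00844 held 1 TGTTCT and both TTTAAA and CCAAT. These matches describe letters in a window and say nothing of binding in these tumours. CCNB2 had steps of -0.19 after castration and 0.93 under enzalutamide, and CDC20 of -0.37 and 0.88.

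Androgen-induced genes leaned the other way. Of 33 tested, 27 were above 0 in the castration step (median 0.41) and 5 in the enzalutamide step (median -0.21), and 2 were above 0 in the difference (median -0.55). No member was called for the difference or reached an adjusted p under 0.05 (0 of 33, limma), and 10 were lower at an unadjusted p under 0.05, against 5.8% of all genes. The mean level of the list ranged from 4.69 to 5.59 (median 5.42) in POST-CX, 5.22 to 6.11 (median 5.69) in CRPC, 4.60 to 6.14 (median 5.39) in ENZS and 4.84 to 5.97 (median 5.20) in ENZR. Its range overlapped between the groups of each step.

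KLK3 (chromosome 19, 50854915 to 50860764), the gene of the marker by which collection was timed, ranged from 935 to 3203 (median 1709) in POST-CX, from 2825 to 6828 (median 4689.5) in CRPC, from 232 to 4693 (median 2803) in ENZS and from 323 to 6704 (median 1323) in ENZR TPM. In CRPC 9 of 10 tumours stood above the POST-CX range. In ENZR 11 of 14 tumours were below the ENZS median and the other 3, mice 75, 94 and 104, above the ENZS range. The castration step was 1.44 (SE 0.46, adjusted p 0.133), the enzalutamide step -0.44 (SE 0.36, adjusted p 0.709) and the difference -1.88 (SE 0.58, adjusted p 0.0970), which passed the call in 1 of 8 alternative settings. Mice 75 and 104 also held the highest MKI67 values of ENZR, 11.5 and 13.1 TPM, whereas mouse 94 was lower in MKI67. A link between KLK3 and MKI67 was not tested.

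TMPRSS2, a surface serine protease, had steps of 0.43 and -0.24 (difference -0.66 (SE 0.42, adjusted p 0.439)). FKBP5, a chaperone that androgens and glucocorticoids induce, had a castration step of -0.07 (SE 0.33) and an enzalutamide step of -0.30 (SE 0.26). KLK2, the kallikrein beside KLK3, had steps of 1.03 (SE 0.52) and 0.08 (SE 0.42). At relapse KLK3, TMPRSS2 and FKBP5 each had an adjusted p under 0.05 for the gap between ENZR and CRPC, with log2 values of -1.58, -0.78 and -0.87.

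Other receptor genes had small differences between the steps. NR3C1, the glucocorticoid receptor, had steps of 0.07 and -0.17, and was higher in the enzalutamide arm both at the low point (1.72, adjusted p 5.99e-05) and at relapse (1.47, adjusted p 0.000577). Its medians were 0.572 TPM in POST-CX and 0.626 in CRPC, levels at which log2(TPM + 1) understates changes. In ENZS the NR3C1 median was 3.54 TPM and in ENZR 4.44, with ENZR tumours from 0.322 to 15.3 TPM. The differences of ERBB2 and EGFR, receptor tyrosine kinases, were 0.25 (95% interval -0.30 to 0.80) and -0.22 (-0.75 to 0.30).

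UGT2B15 and UGT2B17, which inactivate androgens by glucuronidation, had large values without a call. UGT2B15 ranged from 6.45 to 51.2 (median 22.2) in POST-CX, from 2.96 to 29.2 (median 12.7) in CRPC, from 2.33 to 71.3 (median 15.3) in ENZS and from 2.09 to 178 (median 74.6) in ENZR TPM, and 7 of 14 ENZR tumours lay above the ENZS range. Its difference was 2.32 (SE 0.86, adjusted p 0.157), and that of UGT2B17 1.77 (SE 0.97, adjusted p 0.359). The UGT2B genes are close in sequence, and reads can be divided among them. Over the 18 tested genes of androgen synthesis and glucuronidation the median difference was 0.04, near that of all genes.

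Hypoxia and glycolysis genes had medians above 0 in both steps. Of 31 genes, 30 were above 0 in the castration step (median 0.57) and 23 in the enzalutamide step (median 0.15), and the median difference was -0.36. In the castration step 10 of 31 were higher at an unadjusted p under 0.05, against 2.84% of all genes, and in the enzalutamide step 0 of 31. ALDOC, a glycolytic aldolase, was above the POST-CX range in 10 of 10 CRPC tumours, with steps of 0.97 (adjusted p 0.0952) and 0.09, and BNIP3, a mitophagy receptor, in 8 of 10, with steps of 0.92 and 0.04. The motif ACGTG occurred in 15 of the 28 promoters of the list (53.6%), against 26.8% of genes tested. No member of the list was called for the difference (0 of 31, limma), and 3 were lower at an unadjusted p under 0.05, near the 5.8% of all genes.

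Genes of protein folding in the endoplasmic reticulum took the direction of the opposite genes with small values. Of 28 genes, 23 were above 0 in the castration step (median 0.10) and 1 in the enzalutamide step (median -0.17). None was called for the difference (0 of 28, limma), and 10 were lower at an unadjusted p under 0.05, against 5.8% of all genes. DNAJB9, a co-chaperone of the folding machinery, had steps of 0.39 and -0.62 and a difference of -1.01 (SE 0.30, adjusted p 0.0879), and the chaperone BiP, encoded by HSPA5, a difference of -0.63 (SE 0.20, adjusted p 0.0995). Metallothioneins, which bind zinc, had a median of 0.54 in the castration and -0.19 in the enzalutamide step over 6 genes.

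Growth-related lists were mixed. Of 78 cytosolic ribosomal protein genes, 76 were above 0 in the enzalutamide step (median 0.18) and 68 in the castration step (median 0.08). The median difference of 0.10 turned to -0.03 with values as deposited, and these genes have many processed pseudogenes. Ribosome biogenesis genes had medians of 0.14 in the enzalutamide and -0.08 in the castration step, the latter equal to that of all genes. In the difference 26 of 28 were above 0, against 56.5% of all genes. Their castration median turned to 0.02 as deposited and 0.03 with median centring, with 20 and 22 of 28 above 0 in the difference. Cholesterol synthesis had 21 of 24 genes above 0 in the castration step (median 0.22) and 12 of 24 in the enzalutamide step (median 0.00). The other lists had median differences between -0.37 (ERBB receptors and ligands) and 0.17 (mitochondrially encoded genes), and over the 28 lists KRT14, among the keratins, was the 1 member called for the difference.

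The stroma list was mixed. Of its 7 tested genes 4 had a difference below 0 and 3 above 0, and none was called (limma), with 2 lower and 1 higher at an unadjusted p under 0.05. They had medians of 0.39 in the castration and -0.38 in the enzalutamide step, and DCN, decorin of fibroblasts, had a difference of -2.56 (SE 0.74, adjusted p 0.0766) with group medians of 0.623, 3.196, 5.19 and 2.33 TPM in POST-CX, CRPC, ENZS and ENZR. LUM, lumican, had a difference of -2.67 (SE 0.91, adjusted p 0.127). The collagen gene COL3A1 had a difference of 0.01 and COL1A1 of 0.82. Human symbols do not measure the mouse stroma of the host. The part of the stroma-list genes in the differences of the genes above was not tested.

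**Figure D5:**
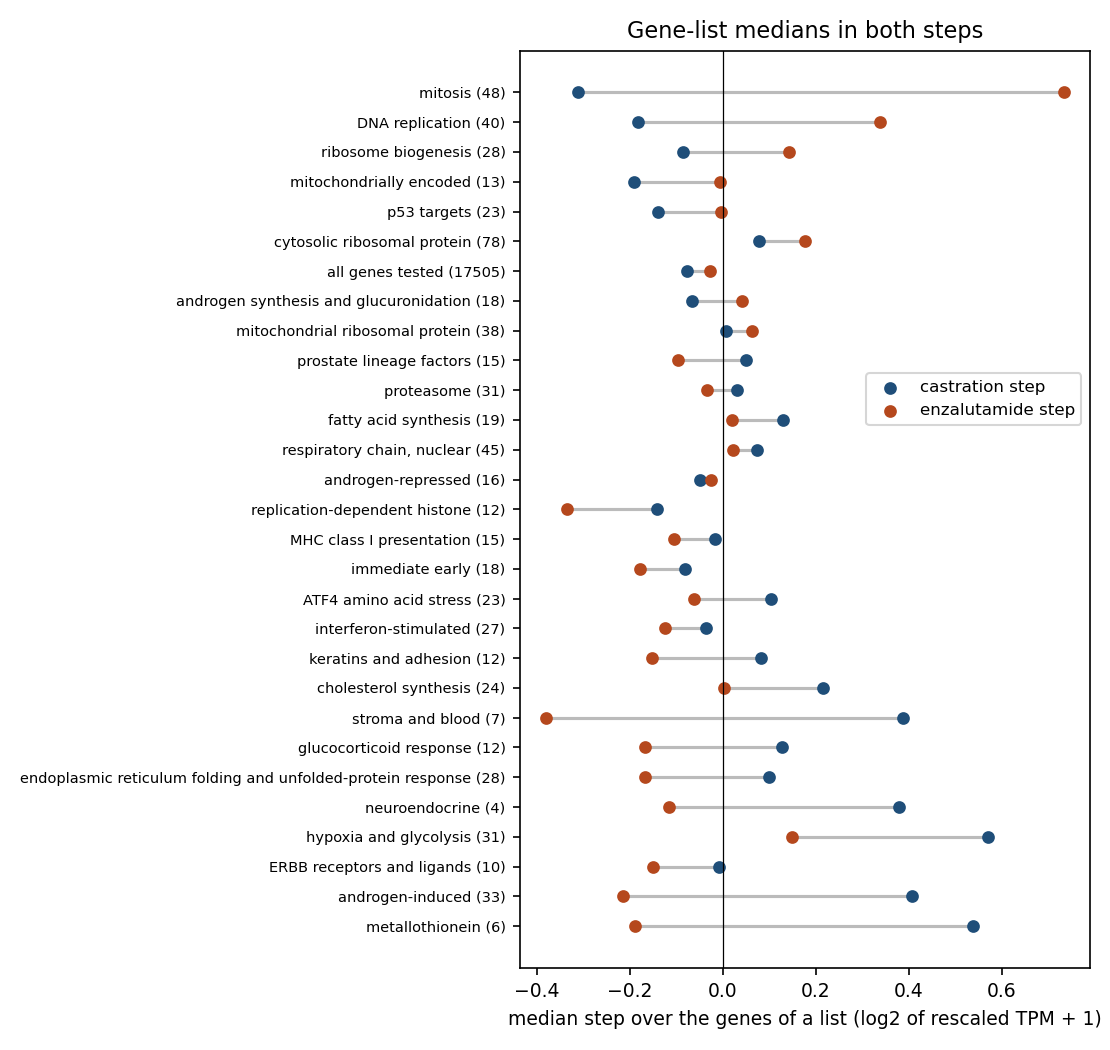
For each gene list (number of genes tested in brackets) the blue point gives the median castration step and the red point the median enzalutamide step over its genes, in log2 of rescaled TPM + 1, ordered by the median difference. Mitosis and DNA replication stand at the top with medians of 0.73 against -0.31 and 0.34 against -0.18, and metallothionein, androgen-induced and hypoxia genes near the bottom with the castration step higher.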

How the data were processed

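Polyadenylated RNA of 54 LNCaP xenografts was sequenced from strand-specific libraries in paired ends. The authors trimmed reads with Trim Galore (0.6.5), aligned them with STAR (2.7.2b) to joined human GRCh38 and mouse GRCm38 references, quantified with RSEM (1.3.3), and deposited TPM of 60642 human symbols; the strand setting is not given in the sources used here. TPM hold no read depth, so no counting interval is given and precision rests on the spread between tumours. Here each tumour was rescaled to 1000000, genes with at least 1 TPM in at least 7 tumours were kept, and log2(TPM + 1), which understates changes of low genes, was fitted with limma (3.58.1, R 4.3.3, trend) over 52 tumours of 5 groups, PRE-CX included, with Benjamini-Hochberg adjustment within each comparison. Groups came from the labels, which give no batch. Python 3.11.15 summarised the fits, which were tested on simulated data.

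The genes and lists were chosen with earlier results of these data known. Named genes, where the highest of the 4 group means was 5 TPM or more, were up to 12 opposite and 10 shared genes per direction, up to 5 other genes called for the difference per direction, and, at any level, a panel of 17 genes and up to 4 members of each of 28 lists with the widest difference; a few are not reported here. Positions and promoters are from RefSeq (GRCh38.p14). Alternatives were the values as deposited, all 54 tumours, a pseudocount of 0.1, no filter, the 4 groups alone, median centring, robust variance, group weights, and leaving out each of 43 tumours.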

Additional observations from a re-analysis of the deposited data

Results flagged for a closer look

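The 27 genes with a called difference between the relapse steps stand here because the difference itself was tested by limma. The steps differed by -3.55 in log2 for LINC00844, -2.21 for KRT14, -2.02 for GAPLINC, -1.62 for PTGER4, -1.44 for CAMK2D and -1.42 for ANK1. They differed by -1.31 for FANCD2OS, -1.303 for EPHB6, -1.26 for NFIL3, -1.25 for FOCAD-AS1, -1.202 for PLA2G5, -1.14 for RRAGB, -1.13 for C17orf58, -1.08 for DCXR-DT, -1.03 for ASAH1 and -1.01 for AC127526.5. In the other direction the values were 2.88 for BCAP31P1, 1.82 for FAM13A, 1.76 for NUDT8, 1.51 for TFF1, 1.504 for NPW and 1.35 for FANCA. They were 1.33 for C1QTNF6, 1.19 for CNTNAP2, 1.105 for CDK5R1, 1.09 for MEX3A and 1.01 for VASH2.

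In 54 groups of 7 or 10 tumours, the POST-CX and CRPC tumours of each of the 27 genes, 2 tumours lay far from the others of their group by Dixon's test, which flags about 1 in 20 groups by chance. They were CRPC mouse 43 for BCAP31P1, at 14.05 TPM against a group median of 1.74, and POST-CX mouse 66 for NFIL3, at 53.4 TPM against a median of 32.6. Without these tumours the differences were 3.14 for BCAP31P1 and -1.35 for NFIL3. The call of BCAP31P1 remained, but that of NFIL3 was lost. NFIL3 kept its call in 19 of the 43 fits without 1 tumour.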

How the results depend on the processing

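No paired analysis was possible because no mouse number is shared between groups. Of the 27 genes, 8 kept their call in every alternative setting and in every fit without 1 tumour: ANK1, BCAP31P1, C17orf58, FAM13A, FANCA, GAPLINC, KRT14 and LINC00844. None of the 27 changed sign in any of them. The number of genes called for the difference moved from 27 to 44 with values as deposited, 13 with all 54 tumours, 41 with a pseudocount of 0.1 TPM, 11 without the filter, 74 with median centring and 80 with group weights. The castration step moved from 14 to 5 as deposited, 3 with all 54 tumours, 2 without the filter and 60 with group weights, and the enzalutamide step from 0 to 1 with the pseudocount of 0.1. Opposite genes moved from 7 to 14 as deposited, 22 with the pseudocount of 0.1, 4 without the filter, and 26 each with median centring and with group weights. Shared genes stayed at 0 in every alternative. The gaps moved from 786 to 1478 genes at the low point and from 241 to 674 at relapse with the pseudocount of 0.1. At unadjusted p-values, genes of the same sign moved from 32 to 20 as deposited and 64 without the filter, and genes of opposite signs from 214 to 411 with median centring. The causes of these moves were not tested. The fit without the filter held 39328 genes in place of 17505.

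Leaving out 1 tumour at a time, most of these fits added after seeing the data, gave 11 to 57 genes for the difference. It gave 11 to 17 without CRPC mouse 35, 47, 89 or 107, ENZR mouse 72, ENZS mouse 17, 56 or 106 or POST-CX mouse 18, 44, 66, 86 or 92, and 41 to 57 without CRPC mouse 81, ENZR mouse 23 or 98, ENZS mouse 49 or POST-CX mouse 48. The castration step ranged from 2 (without CRPC mouse 47 or 107 or POST-CX mouse 44, 66, 86 or 92) to 23 (without CRPC mouse 29), and was at most 8 without CRPC mouse 35 or 102 or POST-CX mouse 18 or 99 and 22 without CRPC mouse 43. Opposite genes ranged from 4 (without ENZR mouse 72 or POST-CX mouse 18, 44 or 66) to 27 (without ENZR mouse 98), and were 11 to 15 without CRPC mouse 81 or 102, ENZR mouse 23 or 64 or ENZS mouse 28, 49 or 101. The enzalutamide step ranged from 0 to 1 (1 without ENZS mouse 17, 45 or 76), the gaps from 719 to 887 and from 198 to 306, unadjusted genes of opposite signs from 161 to 264 and of the same sign from 20 (without ENZS mouse 49) to 50 (without CRPC mouse 89), with 21 without ENZR mouse 100. The correlation of the steps ranged from -0.28 to -0.15.

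Reversals concerned genes without a called difference. DSC2 (0.08) went to -0.0534 as deposited and -0.0117 with median centring, and ranged from -0.147 to 0.247 without 1 tumour. HOXC13-AS (0.06) went to -0.0425 and -0.0325, with a range from -0.0605 to 0.163, and DNAJB4 (0.08) to -0.0451 and -0.00890, with a range from -0.00821 to 0.174. HLA-B (-0.41) went to 0.0291 with all 54 tumours. Depth is unknown for single tumours, and the pseudocount understates genes near 1 TPM.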
